A study of Mus musculus with 12 samples.

Results

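Lung microRNAs of unirradiated mice on a flaxseed diet were compared with those of irradiated mice on a control diet. The samples were taken by group label, which gave 6 of the 12 mice of the series, and every microRNA assay with a reading was included. The unirradiated flaxseed group was mice 11, 12 and 13, of the strain C57BL/6, which ate a diet with 10% flaxseed for 21 days and received no radiation. The irradiated control group was mice 7, 8 and 9 of the same strain, which ate the control diet, received 13.5 Gy and gave their lungs 48 h later. Age, sex, the irradiated field and the make-up of the control diet are not given in the sources used here. Diet and radiation differed at once between the groups, so the parts of diet and radiation in any difference cannot be told apart. The other 6 mice, 3 unirradiated on the control diet and 3 irradiated on flaxseed, entered the model for its estimate of spread and are used below to show where the values of these groups lay.

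MicroRNAs are short RNAs that guide Argonaute proteins to messenger RNAs, mainly by pairing of the seed near their 5′ end, and so lower the output of their targets. Relatives with the same seed can share many targets, and neighbours in the genome are often cut from the same primary transcript. In irradiated tissue the damage-activated factor p53 is known to induce the miR-34 genes, while flaxseed is known as a source of plant lignans and of alpha-linolenic acid.

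Each value was a relative threshold cycle (Crt) of a quantitative PCR reaction on an OpenArray slide. Levels below are minus Crt relative to the mean of the same mouse, on a log2 scale, so that a higher level means more of the microRNA. A level can be compared between mice for the same assay, but not between assays, whose efficiencies are not known. Reverse transcription and pre-amplification ran in separate primer pools A and B. A microRNA counted as detected at a Crt below 28. Testing needed detection in 2 or more mice of every group, which 296 of the 312 microRNA assays with a reading met (181 from pool A, 115 from pool B).

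The flaxseed lungs gave fewer readings. Mice 11, 12 and 13 had 291, 297 and 281 detected microRNA assays, and mice 7, 8 and 9 had 309, 307 and 307. Their mean Crt over the 260 assays detected in all 12 mice was 20.42, 20.07 and 21.20 in the flaxseed mice and 19.74, 19.74 and 19.76 in the irradiated control mice. Neither measure overlapped between the groups, and the exact two-sided permutation test gave p = 0.1 for each, the smallest that 3 against 3 mice allow. The gap in mean Crt between pools B and A was 1.78 in mouse 11, against 2.41 and 2.56 in the other flaxseed mice and 2.38 to 2.69 in the irradiated controls (exact permutation p = 0.6). Spearman's rho over 261 assays was 0.931 to 0.959 between flaxseed mice, 0.983 to 0.988 between irradiated control mice, and 0.887 to 0.964 across the groups. The lower correlations and later cycles of the flaxseed mice move with every result below, and their part in the results was not tested. In the deposited Crt table no microRNA value of either group had a 4th decimal, whereas up to 49.7% of the values of a mouse did in the other groups. The label of lung was set beside microRNAs of its main cells: miR-126 of endothelium, miR-145 of smooth muscle and the miR-200 family of epithelium were detected in all 6 mice. The liver microRNA miR-122 had no named assay with a reading. These readings cannot tell lung from other tissues that hold such cells.

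Sequences are shown first for microRNAs that were called while a close relative was not, because a single base separates several of these pairs. They are mature sequences from RefSeq for GRCm38.p6, written 5′ to 3′, with the seed (bases 2 to 8) in capitals. The let-7 family has the same seed throughout:
let-7a: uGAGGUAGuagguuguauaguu
let-7c: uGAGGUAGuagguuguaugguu
let-7e: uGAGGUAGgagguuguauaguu
The miR-29 family, repressors of collagen genes, and the miR-19 pair of the miR-17 to miR-92a-1 cluster likewise differ outside the seed:
miR-29a: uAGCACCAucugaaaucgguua
miR-29b: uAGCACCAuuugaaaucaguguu
miR-29c: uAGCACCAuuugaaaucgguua
miR-19a: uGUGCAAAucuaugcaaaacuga
miR-19b: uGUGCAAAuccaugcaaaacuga
Other pairs with a shared seed, of which the first was called lower and the second was not called, were these:
miR-25: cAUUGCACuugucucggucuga
miR-92: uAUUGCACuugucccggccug
miR-125a-5p: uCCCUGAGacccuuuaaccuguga
miR-125b: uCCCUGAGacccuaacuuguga
miR-195: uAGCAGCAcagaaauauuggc
miR-16: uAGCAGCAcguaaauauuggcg
miR-429: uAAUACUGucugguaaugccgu
miR-200b: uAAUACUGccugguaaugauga
Of the higher calls, miR-34a, miR-34b-3p and both members of the miR-26 pair are shown, with miR-34b-5p, which has the seed of miR-34a and was not called:
miR-34a: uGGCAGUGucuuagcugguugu
miR-34b-5p: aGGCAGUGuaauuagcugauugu
miR-34b-3p: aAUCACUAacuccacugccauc
miR-26a: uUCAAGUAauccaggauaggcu
miR-26b: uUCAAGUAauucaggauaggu

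Counted from the 5′ end, let-7a and let-7e differ by U9G, let-7a and let-7c by A19G, miR-29c and miR-29a by U10C, and miR-19a and miR-19b by U11C. Of the 84 assays looked up in RefSeq, 73 were matched, among them 30 of the 41 that passed the test.

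The comparison called 41 of 296 assays, or 13.9%, at an adjusted p under 0.05 in limma. Of these, 20 were higher in the unirradiated flaxseed lungs (6.76%) and 21 were lower (7.09%). The higher differences ran from 0.63 to 2.10 on the log2 scale and the lower ones from -0.84 to -6.73, beside a median of 0.15 over all assays tested. Pool A held 18 of the 20 higher and 20 of the 21 lower calls. The median standard error was 0.22 for the higher calls and 0.60 for the lower calls. Unadjusted p was under 0.05 for 72 assays, 42 of them higher. In 55 assays (18.6%) every detected flaxseed value lay above every detected irradiated control value, and in 43 (14.5%) every one lay below. Mice without detection were left out of these counts, so for some assays, such as miR-25, a mouse is missing.

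These calls rested on the shared spread of 12 mice and on single mice. With the 6 mice fitted alone, 2 assays were called, miR-124a and miR-423-5p, both lower. Leaving out an irradiated control mouse left 19 calls (mouse 7), 9 (mouse 8) or 7 (mouse 9), and leaving out flaxseed mouse 12 left 21. In the other groups, removing mouse 5, 15, 17 or 18 left 19, 20, 20 and 19 calls. In every fit without 1 mouse in which they were tested, miR-34a, miR-375, miR-421, miR-124a, miR-25 and miR-423-5p were still called, and the other 35 lost the call at least once. Undetected in mouse 11, miR-25 could not be tested without mouse 12 or 13. Undetected in mice 2 and 13, miR-423-5p could not be tested without mouse 4, 5, 11 or 12. No called assay changed direction when 1 mouse was left out. Scaled to the control RNAs instead of the global mean, 8 assays were called, all lower, and the median over all assays tested was -0.13. Under that scaling all 20 higher calls were still above 0 and all 21 lower calls below 0.

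**Figure D1:**
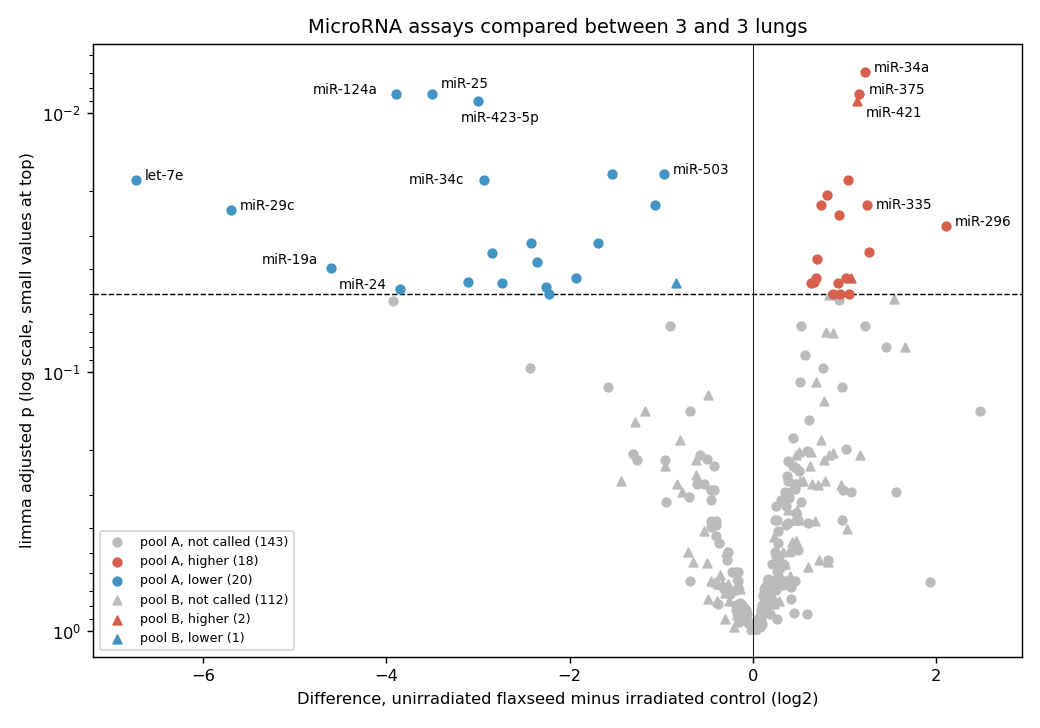
The x axis is the log2 difference between unirradiated flaxseed and irradiated control lung, and the y axis is the limma adjusted p on a log scale with small values at the top. Circles are pool A and triangles pool B; the dashed line is an adjusted p of 0.05. The lower calls reach to -6.73, the higher calls to 2.10, and 6 of the 20 higher calls turn below 0 without normalization.

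Among microRNAs linked to p53, 4 of 12 tested assays were higher and 1 was lower, beside 6.76% higher and 7.09% lower over all assays. The median of the 12 was 0.54, beside 0.15 over all assays. The other assay of this list, miR-194, could not be tested. It was detected in all 3 irradiated control mice and in no flaxseed mouse, so the counts and the median leave it out. The leading member was miR-34a, a direct p53 target that represses cell cycle and survival genes, at chr4:150068473-150068494 on the plus strand. Its level was 3.66, 3.66 and 3.46 in flaxseed mice 11, 12 and 13, and 2.30, 2.32 and 2.50 in irradiated control mice 7, 8 and 9. All flaxseed mice lay above all irradiated control mice, and the mice of a group stood close together. The difference was 1.22 ± 0.17 (SE), a 2.33-fold higher level if template doubled in each cycle (limma, adjusted p = 0.00696). Scaled to the control RNAs the difference was 0.94 (adjusted p = 0.0616), and without any normalization it was 0.40 (limma, adjusted p = 0.458). The unirradiated control mice had a mean of 2.31 ± 0.21 (SD, n = 3), close to the 2.37 ± 0.11 of the irradiated control mice, and the irradiated flaxseed mice had 3.08 ± 0.097.

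The miR-34b and miR-34c hairpins lie within 612 bases at chr9:51103034-51103645 on the minus strand, are induced by p53, and are abundant in ciliated airway cells. Their assays gave calls in opposite directions. The level of miR-34b-3p was 5.67, 5.33 and 5.39 in the flaxseed mice and 4.54, 4.89 and 4.72 in the irradiated control mice. It was higher by 0.74 ± 0.17 (limma, adjusted p = 0.0228), but -0.07 without normalization. Mature miR-34c had a Crt of 31.31 in mouse 11, beyond the limit of 28, and had levels of -2.09 and -0.57 in mice 12 and 13, against 0.87, 1.90 and 2.04 in mice 7, 8 and 9. The fit for miR-34c, with mouse 11 missing, gave -2.93 ± 0.57 (adjusted p = 0.0182). With no Crt limit, which takes in mouse 11, the difference was -6.05 and the call was lost (limma, adjusted p = 0.0746). The other arms, miR-34b-5p at 0.79 ± 0.42 and miR-34c# at 0.01 ± 0.28, did not pass the test. A # marks the other arm of a hairpin, as in the assay names.

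Within each mouse, miR-34c was 4.12 log2 units lower relative to miR-34a in the flaxseed group than in the irradiated control group, and 3.57 lower relative to miR-34b-3p. These within-mouse gaps, from 2 flaxseed mice (12 and 13) and 3 irradiated control mice, did not overlap between the groups. Such pairs were chosen after their values were seen, so their gaps here and below are descriptions and were not tested. Among the ciliated-cell markers 1 of 5 tested assays was higher and 1 was lower, beside 6.76% and 7.09% over all assays. Neither miR-449 (-0.95, limma, adjusted p = 0.32) nor miR-449b (0.40, adjusted p = 0.617) passed.

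Also linked to p53 were miR-192 and miR-145. For miR-192 the levels were 2.55, 2.62 and 2.44 in the flaxseed mice and 1.88, 1.70 and 1.63 in the irradiated control mice, without overlap. Its difference was 0.80 ± 0.17 (limma, adjusted p = 0.0207), and -0.01 without normalization. The smooth muscle microRNA miR-145 was higher by 0.66 ± 0.18 (adjusted p = 0.0452), and was -0.15 without normalization. It was the 1 higher call among 3 tested smooth muscle assays, beside 6.76% over all assays. The others, both of miR-143, were at -0.05 (limma, adjusted p = 0.904) in pool B and 0.11 (adjusted p = 0.73) in pool A. For miR-215, which has the seed of miR-192, mouse 13 gave no Crt. With that mouse missing, the difference was 1.45 (limma, adjusted p = 0.0805). Raw Crt of miR-215 was 26.79 and 25.94 in mice 11 and 12 and 26.92 to 27.81 in the irradiated controls, near the limit of 28. The assay for miR-194, whose hairpin neighbours that of miR-192 on chromosome 19, is described with the undetected assays.

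Outside this list miR-375, a microRNA of neuroendocrine and other secretory epithelial cells, was also higher. Its level was 2.53, 2.42 and 2.53 in the flaxseed mice and 1.17, 1.68 and 1.16 in the irradiated control mice. The lowest flaxseed mouse stood above the highest control mouse, and the flaxseed mice lay closer together than the control mice. The difference was 1.16 ± 0.19, or 2.23-fold (limma, adjusted p = 0.00845). In the unirradiated control mice the mean was 1.54 and in the irradiated flaxseed mice 1.62, so the unirradiated flaxseed mean was the highest of the 4 groups.

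For miR-421, reported to repress the damage kinase ATM, the low group was the irradiated control. The levels were -2.56, -2.79 and -2.63 in the flaxseed mice and -3.92, -3.93 and -3.52 in the irradiated control mice. The difference was 1.13 ± 0.20 (limma, adjusted p = 0.00899). The means of the unirradiated control mice (-2.86) and of the irradiated flaxseed mice (-2.36) lay nearer the unirradiated flaxseed mean than the irradiated control mean. The same held for miR-339-5p among the 20 higher calls, at 0.63 ± 0.18 (adjusted p = 0.0456) and -0.18 without normalization. In the other 18 the unirradiated control mean lay nearer the irradiated control.

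The largest higher difference was that of miR-296, an imprinted microRNA of the Gnas region, at 2.10 ± 0.50 (limma, adjusted p = 0.0275). Its levels were -0.81, -2.25 and -0.40 in the flaxseed mice and -3.18, -2.57 and -4.02 in the irradiated control mice. Both groups were wide, and mouse 12 lay only just above mouse 8. For miR-186 the difference was 1.27 ± 0.32, with mouse 13 at 0.79 and mice 11 and 12 at 1.80 and 1.73, against -0.04 to 0.49 in the irradiated control mice. For miR-335, from the imprinted Mest gene, it was 1.24 ± 0.28, with flaxseed levels of 1.86 to 2.15 and irradiated control levels of 0.33 to 1.05. Neither of these overlapped between the groups.

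The imprinted Dlk1-Dio3 locus is a long microRNA cluster that is transcribed from the maternal chromosome. It had 2 of 15 tested assays higher and none lower, beside 6.76% and 7.09% over all assays. The higher assays were miR-376c at 1.01 ± 0.28 (limma, adjusted p = 0.0435) and miR-410 at 0.94 ± 0.22 (adjusted p = 0.0249). The differences of the 15 ran from -0.45 to 1.01. The other 4 assays of this locus, miR-379, miR-382, miR-409-3p and miR-494, could not be tested, and each was detected in all 3 irradiated control mice. Among the flaxseed mice, miR-379 and miR-494 were detected in 1 each and miR-382 and miR-409-3p in none, so the count of lower calls leaves out the members least often detected in flaxseed lung.

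Both members of the miR-26 pair, which share a seed and are abundant in differentiated tissue, were higher. The levels of miR-26b were 6.19, 6.48 and 5.63 in the flaxseed mice and 5.13, 5.00 and 5.38 in the irradiated control mice. Its difference was 0.93 ± 0.26 (limma, adjusted p = 0.0456), and that of miR-26a was 0.68 ± 0.18 (adjusted p = 0.0435), which became -0.05 under quantile normalization and -0.13 with none. In the miR-30 family 1 of 5 was higher and none lower, beside 6.76% and 7.09% over all assays. This was miR-30c at 0.95 (limma, adjusted p = 0.05, just under the threshold before rounding), while miR-30b lay at -2.43 (adjusted p = 0.0968). The remaining higher calls were miR-1937B at 1.07, miR-135b at 1.05, miR-532-3p at 1.04, miR-328 at 0.87 and miR-191 at 0.69. Of these, miR-191 turned to -0.12 without normalization. Among 30 alternative settings the call was kept in 23 for miR-532-3p, 16 for miR-191, 14 for miR-1937B, 9 for miR-135b and 7 for miR-328.

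**Figure D2:**
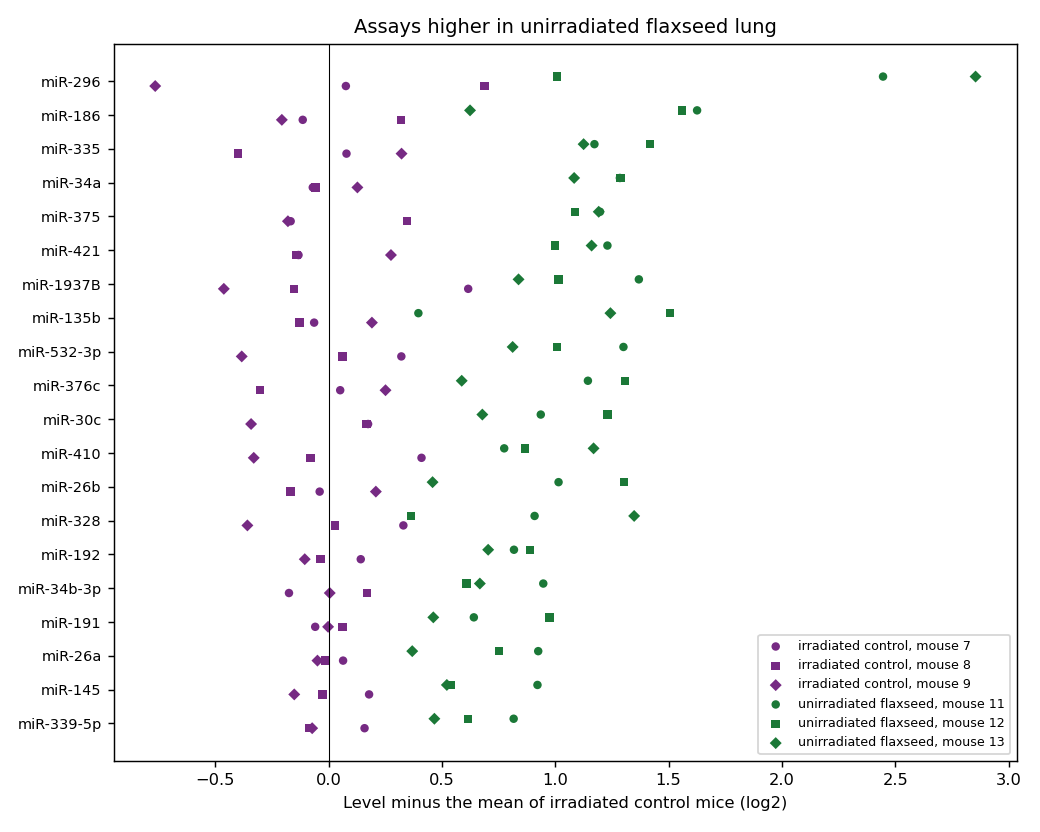
Each line is 1 of the 20 assays called higher, and the x axis is the level in each mouse minus the mean of the irradiated control mice (log2). Green points are flaxseed mice 11, 12 and 13 and purple points irradiated control mice 7, 8 and 9. No green point lies left of a purple point of the same assay, and miR-375 and miR-192 have the tightest green points; without normalization miR-145, miR-191, miR-192, miR-26a, miR-339-5p and miR-34b-3p turn below 0.

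Lower in the flaxseed lungs was let-7e, with the largest difference of all. The let-7 family restrains growth genes and is abundant in differentiated lung. The level of let-7e was -6.58, -0.67 and 0.41 in mice 11, 12 and 13, and 3.79, 4.52 and 5.05 in mice 7, 8 and 9. All flaxseed mice lay below all irradiated control mice, with mouse 11 far below the other two. The raw Crt of let-7e was 27.00 in mouse 11, against 20.74 and 20.79 in mice 12 and 13 and 14.71 to 15.96 in the irradiated controls. The difference was -6.73 ± 1.41 (limma, adjusted p = 0.0182), and -4.53 without mouse 11 (adjusted p = 0.0021). That SE pools the spread of all groups, while the SD was 3.77 in the flaxseed mice and 0.63 in the irradiated control mice. With the 6 mice fitted alone the call of let-7e was lost (limma, adjusted p = 0.114).

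Of the 8 let-7 assays tested, 2 were lower, let-7e and let-7c, and none was higher, beside 7.09% and 6.76% over all assays. For let-7c the levels were 0.06, 3.23 and 3.95 in the flaxseed mice and 4.91, 5.17 and 5.38 in the irradiated control mice, a difference of -2.74 ± 0.78 (adjusted p = 0.0456), and of -1.51 without mouse 11. The other 6 assays ran from -0.18 to 0.59, with let-7b at 0.15 (adjusted p = 0.76), and let-7a, 1 base different from let-7e and from let-7c, was at -0.08 (adjusted p = 0.853). Within each mouse the gap between let-7e and let-7a was -9.90, -3.98 and -2.93 in the flaxseed mice and 0.16, 1.27 and 1.73 in the irradiated control mice, without overlap. The let-7e hairpin lies at chr17:17830352-17830444 on the plus strand beside that of miR-125a and miR-99b. From the same locus miR-125a-5p was lower, at -3.11 ± 0.87 (adjusted p = 0.0452) and at -1.78 without mouse 11, while miR-99b was at 0.52 (adjusted p = 0.0667).

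In the miR-29 family miR-29c was lower. Its level was -5.55, -0.47 and 1.00 in the flaxseed mice and 3.32, 4.03 and 4.71 in the irradiated control mice. The difference was -5.69 ± 1.30 (limma, adjusted p = 0.0238), and -3.71 without mouse 11. Its neighbour miR-29b was at -3.92 ± 1.20 and just missed the threshold (adjusted p = 0.0532), and miR-29a, with 1 base different from miR-29c, was at -0.43 ± 0.23 (adjusted p = 0.285). The miR-29b-2 and miR-29c hairpins lie within 595 bases at chr1:195037040-195037634 on the plus strand, and the other arm miR-29c# was at -0.71 ± 0.60 (adjusted p = 0.497).

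The miR-17 to miR-92 clusters, which promote proliferation, had 3 of 11 assays lower and none higher, beside 7.09% and 6.76% over all assays. From the cluster at chr14:115043671-115044506 on the plus strand, miR-19a was lower and 8 other tested assays did not pass. The level of miR-19a was -7.46, -1.98 and -1.76 in the flaxseed mice and 0.27, 0.80 and 1.56 in the irradiated control mice. Its difference was -4.61 ± 1.22 (limma, adjusted p = 0.0398), and -2.69 without mouse 11, whereas miR-19b was at 0.49 ± 0.40 (adjusted p = 0.489). From the 498 bases that hold miR-106b, miR-93 and miR-25 on chromosome 5, miR-25 and miR-93 were lower and miR-106b was at 0.21 (adjusted p = 0.55).

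For miR-25, mouse 11 gave no Crt and mice 12 and 13 had levels of -4.95 and -3.48, against -1.10, -0.62 and -0.42 in mice 7, 8 and 9. The fit for miR-25, with mouse 11 missing, gave -3.50 ± 0.54 (limma, adjusted p = 0.00845). Its seed relative miR-92 was at 0.18 ± 0.31 (adjusted p = 0.754). For miR-93 the levels were -0.29, -0.02 and -0.30 in the flaxseed mice and 0.66, 0.95 and 0.99 in the irradiated control mice. Here the 3 flaxseed mice stood close together, and the difference was -1.07 ± 0.24 (adjusted p = 0.0228).

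The miR-15/16 family, repressors of cyclins and BCL2, had 2 of 8 assays lower, beside 7.09% over all assays. The median over the family was 0.10. The level of miR-195 was -0.02, 3.02 and 3.31 in the flaxseed mice and 4.46, 4.91 and 5.48 in the irradiated control mice, a difference of -2.85 ± 0.73 (limma, adjusted p = 0.035), and of -1.74 without mouse 11. Its neighbour miR-497, within 419 bases on chromosome 11, was at -0.58 (adjusted p = 0.21), and miR-16 was at 0.13 (adjusted p = 0.791). For miR-503 the levels were -2.21, -1.68 and -1.89 in the flaxseed mice and -1.09, -1.10 and -0.68 in the irradiated control mice. The difference was -0.97 ± 0.19 (adjusted p = 0.0172). The mean of miR-503 in the unirradiated control mice, -1.64, lay nearer the flaxseed mean, and it was the exception among the 21 lower calls in this. Its cluster neighbour miR-322 was at 0.71 (adjusted p = 0.273).

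In the group of miR-23, miR-24 and miR-27, 2 of 4 assays were lower, beside 7.09% over all assays. The level of miR-24 was 0.12, 4.75 and 5.57 in the flaxseed mice and 6.87, 7.21 and 7.89 in the irradiated control mice, a difference of -3.85 ± 1.12 (limma, adjusted p = 0.0481), and of -2.12 without mouse 11. For miR-23b, with mouse 11 left out at a Crt of 28.87, it was -2.42 ± 0.57 (adjusted p = 0.0317). With no Crt limit the miR-23b difference was -4.56 and the call was lost (limma, adjusted p = 0.0597). Between them in the cluster at chr13:63300484-63301275 on the plus strand lies miR-27b, at 0.45 (adjusted p = 0.272).

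**Figure D3:**
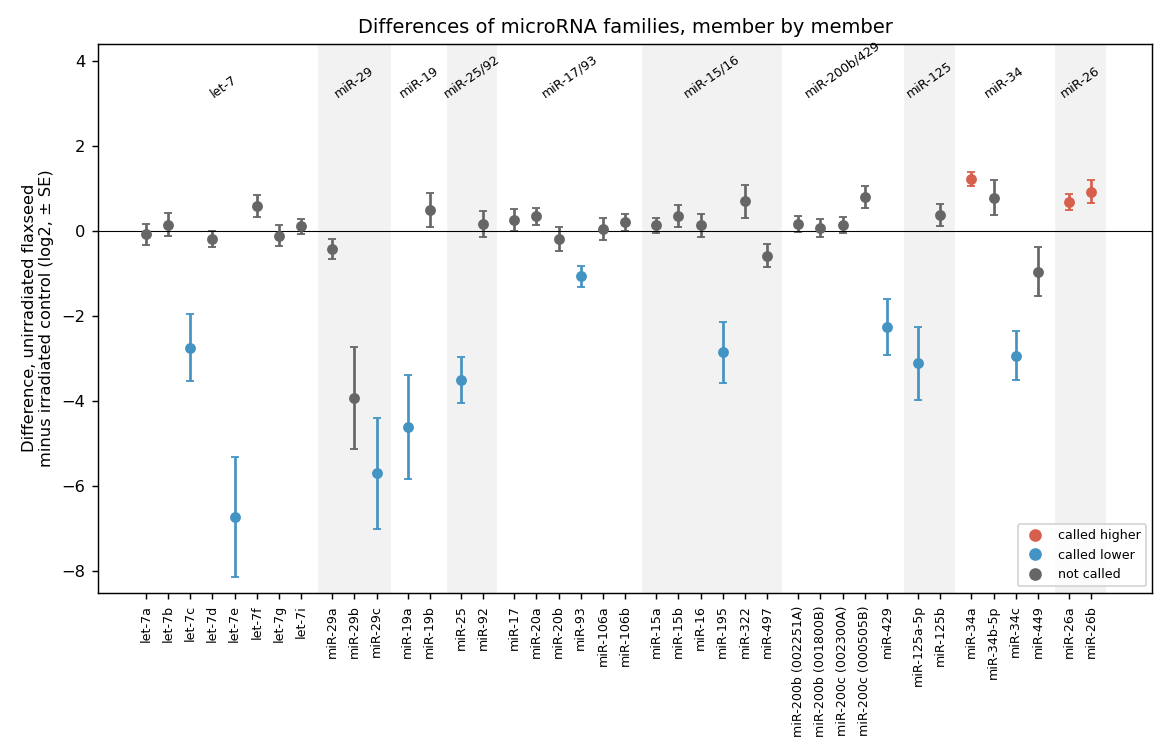
The y axis is the log2 difference, unirradiated flaxseed minus irradiated control, with its standard error, for 10 microRNA families. Red points were called higher, blue points lower, and grey points were not called. In every family with a blue point, the blue points stand below all grey ones. In the miR-29 family the grey miR-29b is also far below 0, at -3.92. Under no normalization miR-26a turns to -0.13, and under quantile normalization to -0.05.

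The call kept in every alternative in which it was tested was miR-124a, best known from neurons. Its levels were -6.61, -7.76 and -6.38 in the flaxseed mice and -3.02, -3.09 and -2.95 in the irradiated control mice. The groups were more than 3 cycles apart, and mouse 12, not mouse 11, was the lowest. Raw Crt of miR-124a was 27.03, 27.83 and 27.58 in the flaxseed mice, just under the limit of 28. In the irradiated controls it was 22.71 to 22.83. With a Crt limit of 26 no flaxseed mouse detected miR-124a, so that setting could not test it. The difference was -3.90 ± 0.60 (limma, adjusted p = 0.00845). It was the 1 lower call among 7 tested assays of the neural list, whose median was 0.33, beside 7.09% lower over all assays. The neural list also holds miR-96, which was detected in all 3 irradiated control mice and no flaxseed mouse and could not be tested. For miR-124a the means of the other groups were -3.62 in unirradiated control mice and -4.85 in irradiated flaxseed mice, both between the means compared here.

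Near the 7.09% over all assays, inflammation-linked microRNAs held 1 lower call among 9 tested assays. This was miR-21, which is induced in injured and fibrotic lung. It had no Crt in mouse 11, levels of 2.79 and 3.27 in mice 12 and 13, and levels of 4.27, 4.67 and 5.24 in mice 7, 8 and 9. The difference, from 2 flaxseed mice, was -1.69 ± 0.40 (limma, adjusted p = 0.0318). With mouse 11 set to the limit of 28 it was -5.23, and the call of miR-21 was lost (adjusted p = 0.196). The raw Crt of miR-21 was 17.28 and 17.93 in mice 12 and 13 and 14.52 to 15.48 in the irradiated controls, far below the limit of 28. The interval around miR-155 was wide (1.94 ± 2.36, adjusted p = 0.651), and miR-146a was at 0.45 (adjusted p = 0.284).

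Lower calls also included miR-423-5p at -3.00 ± 0.46, with mouse 13 undetected (adjusted p = 0.00899), and miR-340-5p at -1.54 ± 0.30 (limma, adjusted p = 0.0172). With undetected reactions set to the limit of 28, the call of miR-423-5p was lost (adjusted p = 0.13). Another was miR-467a of the Sfmbt2 cluster, at -2.36 with mouse 11 undetected. For miR-193b the levels were -3.58, -1.11 and -0.39 in the flaxseed mice and 0.38, 0.41 and 0.82 in the irradiated control mice, a difference of -2.23, and of -1.24 without mouse 11. For miR-28 they were -3.30, -1.30 and -1.40 against -0.67, -0.06 and 0.51, a difference of -1.93. Without mouse 11 the miR-28 difference was -1.23 and the call was lost (limma, adjusted p = 0.0709). The smallest was miR-213, the other arm of a miR-181a hairpin, at -0.84 ± 0.24 (adjusted p = 0.0456), and the lower call of pool B. In the list linked to oxygen and stress, 3 of 8 assays were lower (miR-24, miR-28 and miR-93) and 1 was higher (miR-335). Over all assays 7.09% were lower and 6.76% higher. The hypoxia-induced microRNA miR-210 was at 0.36 (limma, adjusted p = 0.331).

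The lower calls shared an order of mice. Mouse 11 was the lowest flaxseed mouse in 12 of the 15 lower calls with 3 flaxseed values, and 5 more of the 21 were not detected in it. The median shift of the lower calls from the irradiated control mean was -4.10 in mouse 11, -2.21 in mouse 12 and -1.56 in mouse 13, so it was below 0 in each. Within the irradiated controls, mouse 7 was lowest in 18 of 21 and mouse 9 highest in 19 of 21. Among the assays not called, mouse 7 was lowest in 35.8% and mouse 9 highest in 34.6%. The higher calls had median shifts of 0.98, 1.01 and 0.76 in mice 11, 12 and 13. Without mouse 11, 19 of the 20 lower calls that could be tested and 11 of the 20 higher calls were still called.

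**Figure D4:**
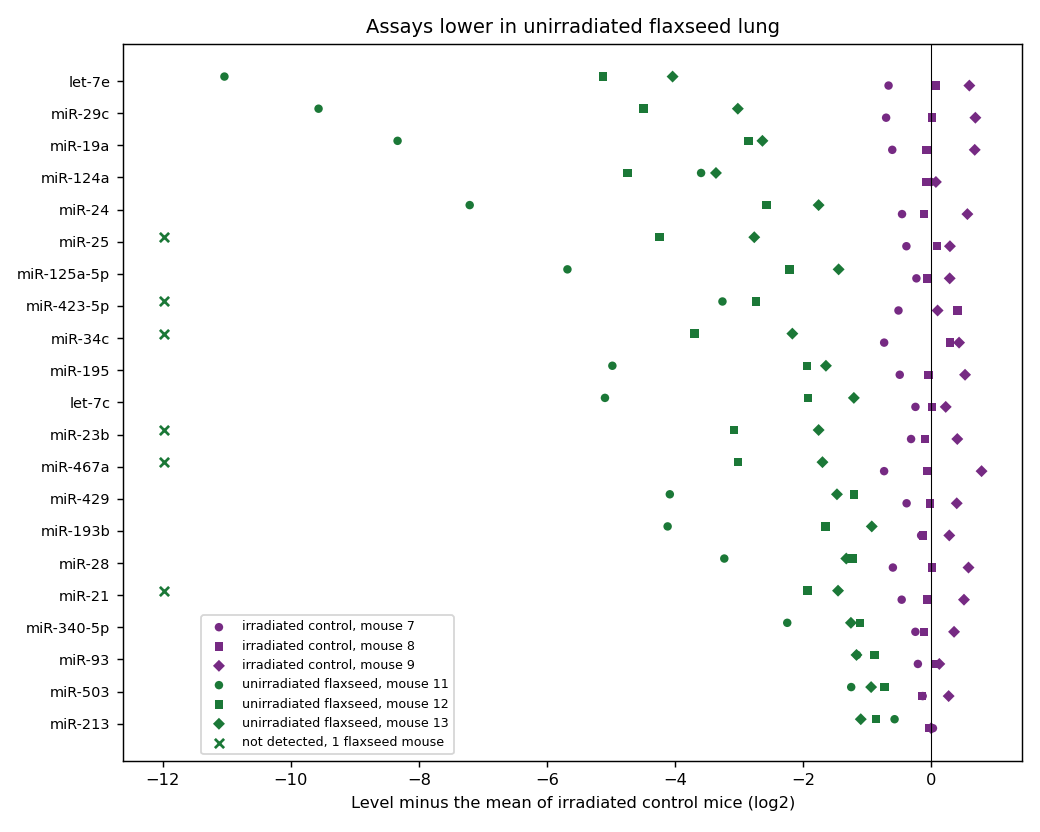
Each line is 1 of the 21 assays called lower, and the x axis is the level in each mouse minus the mean of the irradiated control mice (log2). Green circles are flaxseed mouse 11, green squares mouse 12, green diamonds mouse 13, purple points irradiated control mice, and a cross marks 1 flaxseed mouse without detection, with no value. Mouse 11 is lowest in 12 of the 15 assays with 3 flaxseed values, and mice 12 and 13 also lie left of the purple points.

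Markers of the cell types that lung tissue holds gave few calls. In bulk tissue, fewer cells of a type and less RNA per cell cannot be told apart. None of the 4 lymphoid assays was called by limma, with miR-150 of mature lymphocytes at -0.91 ± 0.29 (adjusted p = 0.0666) and every flaxseed mouse below every irradiated control mouse. Nor was any of the 4 myeloid assays called, with miR-142-3p at -1.31 (adjusted p = 0.207) and miR-223 at 0.68 and 0.60 in its assays of pools B and A. The mean level over the myeloid assays was 1.73 to 3.32 in the flaxseed mice and 2.60 to 2.84 in the irradiated control mice. Over the lymphoid assays it was 1.73 to 4.26 and 2.30 to 3.24, so that both lists overlapped between the groups. The highest lymphoid value, that of mouse 13, held a miR-155 level of 9.33, against levels below 0 in mice 11 and 12. Over the other 3 lymphoid assays the mean was 2.42 to 3.06 in the flaxseed mice and 3.07 to 3.29 in the irradiated controls. Mouse 11, at 3.0618, lay only just below mouse 9, at 3.0745. Leaving out miR-155 was a choice made after seeing these values, and the split was not tested. Red cell miR-451 was at -0.39 (adjusted p = 0.791).

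Epithelial markers had 1 higher (miR-375) and 1 lower call (miR-429) among 10 tested assays, near the 6.76% and 7.09% of all assays. Their mean level over 9 of them was 3.55 to 4.04 in the flaxseed mice and 3.55 to 3.85 in the irradiated control mice. The levels of miR-429 were -0.93, 1.95 and 1.68 against 2.77, 3.14 and 3.55, a difference of -2.25 ± 0.65 (limma, adjusted p = 0.0469), and of -1.29 without mouse 11. The assays of miR-200b, at 0.16 and 0.07, and of miR-200a, at 0.12, come from the same 1846 bases of chromosome 4 and did not pass. The assays of miR-200c in pools B and A, at 0.79 (adjusted p = 0.0703) and 0.15 (adjusted p = 0.678), did not pass either. Endothelial miR-126 was at -0.15 and miR-126# at -0.96, and neither was called. The mean level over the 4 striated muscle assays was 0.94, 0.82 and 0.0462 in the flaxseed mice and 0.0509, -0.02 and -0.08 in the irradiated control mice. The groups overlapped, since mouse 13 lay just below mouse 7. No muscle assay was called, with miR-1 at 0.98 and 0.97, miR-133b at 0.77 and miR-133a at -0.25.

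Detection also differed between the groups. Of the 312 assays, 41 were detected in more irradiated control mice than flaxseed mice, 7 in more flaxseed mice, and 264 in equal numbers. All 3 irradiated control mice and no flaxseed mouse detected 7 assays, which were miR-194, miR-1960, miR-351 (001067A), miR-382, miR-409-3p, miR-7 and miR-96. No assay showed the opposite.

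The clearest of these was miR-194, an epithelial microRNA of the liver and gut that shares a cluster with miR-192. Its Crt was 16.99, 17.79 and 17.03 in mice 7, 8 and 9, and it gave no Crt in mice 11, 12 and 13. All 3 mice of each of the other groups also detected it. The irradiated control mice read miR-351 (001067A) at a Crt of 21.82 to 22.16 and miR-382 at 20.49 to 21.11, and the flaxseed mice gave no Crt for either. Of the unirradiated control mice, 1 detected miR-382. The Crt of miR-409-3p was 24.38 to 24.48 and that of miR-1960 was 24.30 to 26.49 in the irradiated control mice, with none in the flaxseed mice. A separate assay of miR-351 (002063A) was detected in the flaxseed mice and was at -0.69 (adjusted p = 0.304). For miR-7 the flaxseed mice 12 and 13 had a Crt of 31.08 and 30.08, beyond the limit of 28, against 24.49 to 25.87 in the irradiated control mice. For miR-96, of the miR-183 cluster, mouse 13 had a Crt of 31.74, against 24.27 to 25.97.

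The other groups placed the calls. The mean of the unirradiated control mice lay nearer the irradiated control mean in 18 of the 20 higher calls and in 20 of the 21 lower calls. The mean of the irradiated flaxseed mice lay nearer the irradiated control mean in 12 of the 20 higher and 19 of the 21 lower calls. These counts describe means of 3 mice and were not tested. For miR-34a, miR-296 and miR-335 the irradiated flaxseed mean lay nearer that of the unirradiated flaxseed mice, whereas for miR-29c it was 5.49 ± 0.85, above the 4.02 ± 0.70 of the irradiated control mice.

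**Figure D5:**
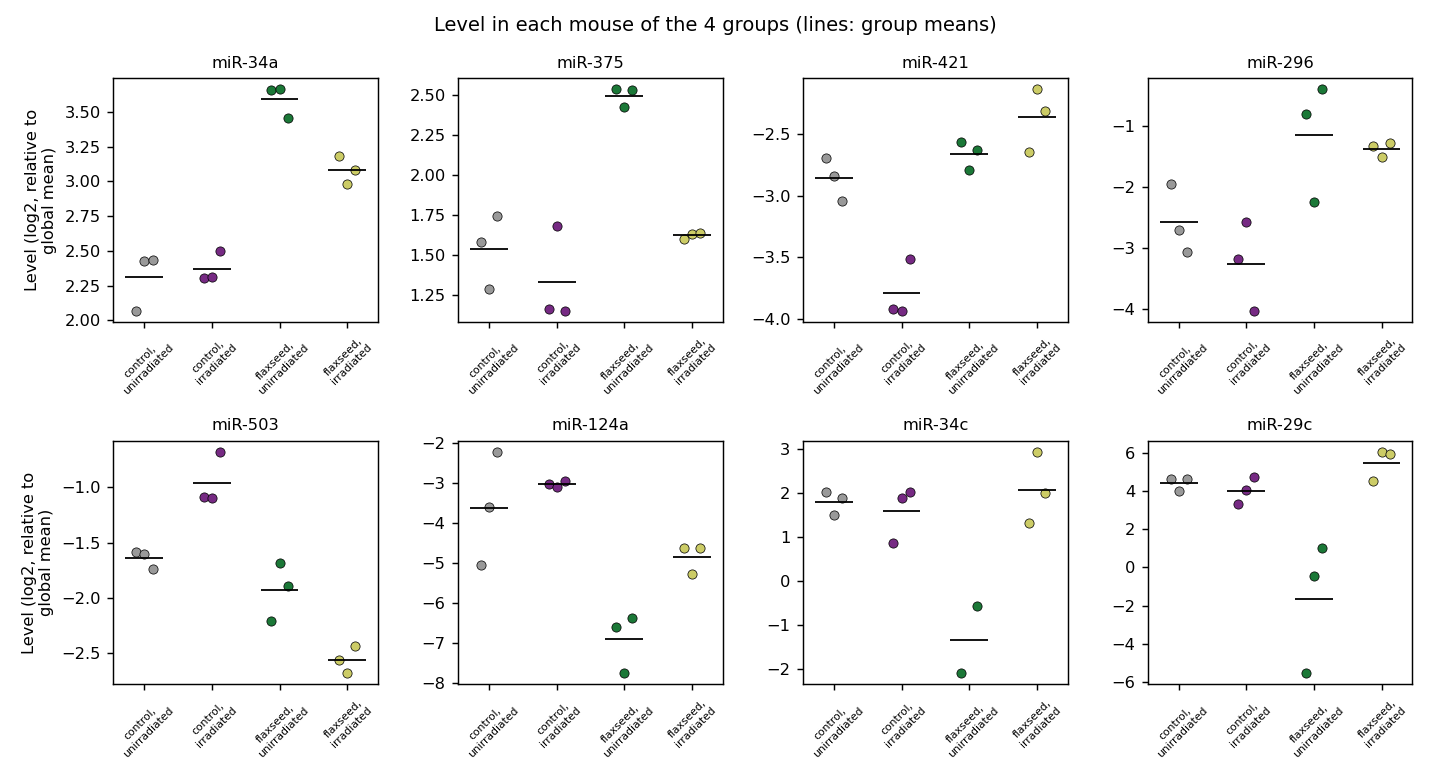
The y axis is the level (log2, relative to the global mean) of 8 microRNAs in each mouse of the 4 groups, with group means as lines, on a separate scale for each panel. The unirradiated flaxseed mice are the highest for miR-34a and miR-375 and the lowest for miR-124a, miR-34c and miR-29c. For miR-421 the irradiated control mice are the lowest, and for miR-503 they are the highest.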

How the data were processed

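Per the labels' protocols, 100 ng of lung RNA entered reverse transcription in separate primer pools A and B, then 12 cycles of pre-amplification, then OpenArray slides. The authors deposited threshold cycles (Crt), log2 values in which less means more template, and a table of their own normalized log2 values. The sources used here do not give the way in which Crt was called or repeats were combined. OpenArray gives no read depth, so the number of mice and the Crt limit set the precision.

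The Crt table numbers its assays, so names came from the normalized table by matching each assay's ranks over the mice. Of 326 assays with a Crt, 322 were named, and 4 were left out. As a separate check, row numbers followed the alphabetical order of the matched names (Spearman's rho 0.999 across assays). Control RNAs (10 assays) were kept out of tests and of the global mean.

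Levels were minus Crt relative to the mouse's mean over the 260 assays that every one of the 12 mice detected. Undetected reactions were missing, which touched 36 tested assays. One limma fit of 4 group means (limma 3.58.1, R 4.3.3) gave the contrast, with Benjamini-Hochberg adjustment over 296 assays and a call at an adjusted p under 0.05. The fit was also run on simulated data in which each assay had the same spread in all 4 groups. In the data the spread could differ, as for let-7e, with an SD of 3.77 in the flaxseed and 0.63 in the irradiated control mice. The simulation therefore does not bear on such assays. Single values per mouse had exact two-sided permutation tests (scipy 1.17.1). Labels call the samples separate mice. Named were up to 12 higher and 12 lower calls by size, 1 to 4 members of each list, 16 fixed microRNAs, assays detected in all of 1 group and none of the other, and repeat assays of these. The other calls were added after their values were seen. The comparison, its members and the lists were chosen with earlier results of these data known.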

Additional observations from a re-analysis of the deposited data

How the results depend on the processing

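The 41 calls depended on scaling and on the mice in the fit. Scaled to the control RNAs there were 8, with undetected reactions set to the limit 21, and with the 6 mice fitted alone 2, also when the filter used these groups only (2). Leaving out 1 mouse gave 7 to 39 calls. Quantile normalization called 28, of which 17.9% were higher, against 48.8% in the fit reported. No normalization called 44, none of them higher, with a median of -0.65 over all assays. The authors' values called 33, a threshold of 0.10 called 55, and the other planned settings called 36 to 44. Without normalization 6 higher calls reversed: miR-145 (-0.15), miR-191 (-0.12), miR-192 (-0.011), miR-26a (-0.13), miR-339-5p (-0.18) and miR-34b-3p (-0.074), and miR-26a also under quantile normalization (-0.047). Leaving out the normalization lowered every higher call by 0.81, the gap in mean Crt between the groups. Which higher calls reversed without normalization was thus set by their size alone, and the cause of the gap was not tested. Added after the data were seen, a fit without mice 11 and 13 called 20, and one without mouse 11 scaled within each pool called 34. No paired analysis was possible because the mouse numbers of the groups are not shared.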
